A study of Mus musculus with 16 samples.

Results

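Circadian clock genes were read in whole mouse skin before and during treatment with 4-hydroxytamoxifen, in a transgenic line with inducible β-catenin and in wild-type mice. The set has 10 genes: the period genes Per1, Per2 and Per3, the cryptochrome gene Cry1, the nuclear receptor gene Nr1d2, the output factor genes Dbp, Tef and Hlf, and the activator genes Arntl (also called Bmal1) and Clock. A probe set was taken as a reading of one of them when the array annotation gave it that single gene symbol. The arrays carried 19 such probe sets, 17 of them passed the filter on dim signals, and the brightest one stood for each gene. All 10 genes were tested, among 9058 genes tested in all and 12394 gene symbols on the arrays.

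The study asked which genes respond when β-catenin is switched on in adult epidermis. The transgenic samples came from line D2 of K14deltaNB-cateninER mice, in which the keratin 14 promoter directs an N-terminally truncated β-catenin joined to an estrogen receptor domain to basal keratinocytes, and 4-hydroxytamoxifen (4OHT) activates it. The wild-type samples came from C57BL/6 mice given the same drug. The labels give no strain for the transgenic line, so genotype and strain cannot be told apart. Treatment lasted 0, 1 or 7 days. There were 2 transgenic arrays at day 0, 3 at day 1 and 3 at day 7, and 3 wild-type arrays at day 0, 3 at day 1 and 2 at day 7. The sources used here hold no skin treated with vehicle alone, and no age or sex of the mice was used. The labels mention a single mouse for 3 arrays and mice in the plural for the others, and do not state that arrays stand for separate animals. The p-values therefore measure only how far these arrays scatter, which may be technical in part. The labels also give no hour of sampling, so day of treatment and hour of day cannot be told apart in any change described here.

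The mammalian clock is a feedback loop of transcription factors that runs in most cells of the skin, in epidermis, hair follicle, dermis and fat alike. The proteins of Arntl and Clock pair up and bind E-box sequences, which switches on Per1, Per2, Per3, Nr1d2, Dbp, Tef and Hlf. The period and cryptochrome proteins then shut that pair down, and NR1D2 and its relative NR1D1 repress Arntl through a second DNA element, the RORE. Messages of the E-box-driven genes and of Arntl therefore peak at opposite hours in a rhythmic tissue, and Cry1, which carries both kinds of element, peaks later than the period genes. Here the 7 E-box-driven genes are called the E-box side, and Arntl, Clock and Cry1 the opposite or delayed side.

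Array quality and tissue makeup bear on these readings. The trimmed mean of intensity ran from 359 to 548 over the 16 arrays, and each array was multiplied by a factor of 0.825 to 1.26 to bring it to a common value. The ratio of the 3′ to the 5′ probe sets of Gapdh ran from 0.884 to 1.26, and arrays of a group correlated at 0.974 to 0.988 over all probe sets. All 5 basal and all 5 suprabasal keratinocyte markers, 6 fibroblast, 6 skeletal muscle and 5 adipocyte markers were read on the arrays, that is, markers of epidermis, dermis and the fat and muscle beneath. The summed intensity of 6 hair matrix and inner root sheath markers was 28053 to 41054 on the transgenic day 7 arrays and at most 324 on every other array. In bulk skin, fewer cells of a type and less RNA per cell cannot be told apart.

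Regulatory sequence near the starts of these genes is shown as a description. The E-box did not divide the 2 sides, as it was found in Per1, Tef and Cry1 and not in Per3. RefSeq windows on mouse build GRCm38.p6, running from 250 bases before to 50 bases after a start, were present for 9 of the 10 genes, 14 windows in all, and none was present for Per2. Each window was searched on both strands for the E-box CACGTG, the related E-prime box CACGTT, the D-box TTATGTAA that DBP, TEF and HLF bind, the RORE TAGGTCA and its variant TAGGTTA. Of all 32851 windows in the table, 7.15% held CACGTG, 4.69% held CACGTT, 0.938% held TTATGTAA, 2.61% held TAGGTCA and 1.44% held TAGGTTA. No 2 of these motifs overlapped in the windows printed. The E-box side is represented by Per1 (chr11:69098699-69098998, plus strand), Per3 (chr4:151044616-151044915, minus strand) and Tef (chr15:81811164-81811463, plus strand), and the opposite side by Cry1 (chr10:85185005-85185304, minus strand) and Arntl (chr7:113207261-113207560, plus strand). Each is printed 5′ to 3′ along its gene, with every match in capitals.
Per1: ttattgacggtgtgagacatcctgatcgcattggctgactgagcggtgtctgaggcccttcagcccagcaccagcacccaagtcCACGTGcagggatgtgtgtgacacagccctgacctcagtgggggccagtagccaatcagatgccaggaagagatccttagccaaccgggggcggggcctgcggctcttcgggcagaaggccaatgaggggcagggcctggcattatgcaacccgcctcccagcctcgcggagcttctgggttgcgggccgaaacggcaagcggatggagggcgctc
Per3: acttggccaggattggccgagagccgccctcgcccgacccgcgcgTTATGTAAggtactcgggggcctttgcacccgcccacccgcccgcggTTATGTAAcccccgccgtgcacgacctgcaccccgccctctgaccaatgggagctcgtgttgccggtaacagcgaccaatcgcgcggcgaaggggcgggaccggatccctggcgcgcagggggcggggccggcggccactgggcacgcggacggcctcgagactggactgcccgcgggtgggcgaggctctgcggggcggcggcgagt
Tef: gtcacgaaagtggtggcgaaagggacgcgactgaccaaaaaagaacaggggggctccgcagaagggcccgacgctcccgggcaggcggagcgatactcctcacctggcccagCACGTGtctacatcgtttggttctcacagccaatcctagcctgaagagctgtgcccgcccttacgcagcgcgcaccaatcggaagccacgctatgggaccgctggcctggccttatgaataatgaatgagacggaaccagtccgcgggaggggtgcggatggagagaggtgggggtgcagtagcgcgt
Cry1: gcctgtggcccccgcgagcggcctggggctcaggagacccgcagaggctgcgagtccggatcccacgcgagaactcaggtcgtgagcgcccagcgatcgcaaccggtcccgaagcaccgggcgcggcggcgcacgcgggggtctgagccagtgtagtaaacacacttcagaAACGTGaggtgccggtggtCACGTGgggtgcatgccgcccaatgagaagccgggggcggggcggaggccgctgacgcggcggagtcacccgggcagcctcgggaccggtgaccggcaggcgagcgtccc
Arntl: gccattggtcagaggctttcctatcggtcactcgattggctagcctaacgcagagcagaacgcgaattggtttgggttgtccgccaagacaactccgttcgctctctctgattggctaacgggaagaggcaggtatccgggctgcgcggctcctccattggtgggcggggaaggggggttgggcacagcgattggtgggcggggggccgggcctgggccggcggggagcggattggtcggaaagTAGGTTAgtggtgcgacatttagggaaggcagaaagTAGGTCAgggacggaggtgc
The capitals in Per1, Tef and Cry1 mark CACGTG, which begins 166, 138 and 60 bases before the start of each gene, and Cry1 also has CACGTT on its other strand. Per3 has 2 copies of the D-box, and Arntl has the variant TAGGTTA across its start followed by the RORE TAGGTCA. Every window printed holds a match. The windows of Dbp, Hlf, Nr1d2 and Clock and the second window of Per1 held none of these letters, which says only that they are not in these 300 bases. A match is a description of the sequence and was not tested as a binding site.

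After 7 days the E-box side was far lower than before treatment, in both genotypes. In wild-type skin all 7 of its genes fell, with a median log2 change of -1.29 against -0.03 over all genes tested, and 5.96% of all genes fell in that comparison. In transgenic skin all 7 fell as well, with a median of -1.46 against 0.01 over all genes, and 20.1% of all genes fell. Throughout, a change is on the log2 scale of scaled intensity plus 32, which understates the fold of dim genes, and is given ± its standard error. A gene rose or fell when the adjusted p of limma's moderated test (Benjamini-Hochberg over all 9058 genes) was under 0.05.

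The scaling of the arrays bears on these counts. Left unscaled, the median change of all genes moved by -0.14 in transgenic skin at day 7, by -0.12 at day 1, by -0.11 in wild-type skin from day 1 to day 7 and by 0.15 between genotypes at day 0. It also moved by -0.19 and -0.10 in the differences between genotypes in the changes to days 1 and 7. The called genes then split otherwise: at day 7, 5.75% of all genes rose and 13.9% fell in transgenic skin, against 1.82% and 1.02% in wild-type skin, where day 1 gave 4.22% and 0.916%. Between genotypes, 0.132% were higher and 0.0442% lower at day 1, 0.0110% and 0.0662% in the difference to day 1 (0.121% each way with quantile normalization), and 3.10% and 4.89% in the difference to day 7. Even so, the E-box side fell in full in transgenic skin, and in wild-type skin all but Per1, at day 7.

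**Figure D1:**
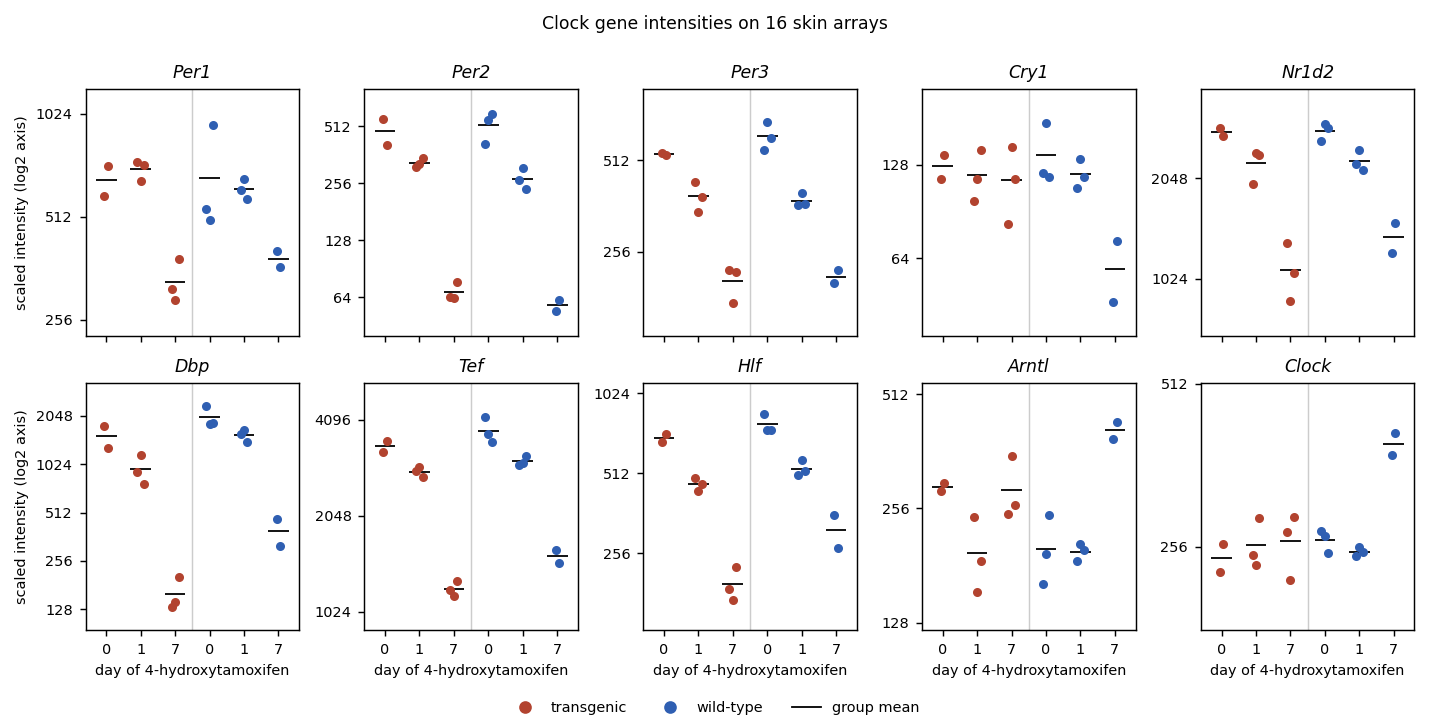
Scaled intensity (log2 axis) of the 10 clock genes on each of the 16 arrays, by day of 4-hydroxytamoxifen, with transgenic arrays in red, wild-type arrays in blue and group means as bars. At day 7 the E-box side is low in both genotypes (Per2 at most 77.0), while Arntl and Clock are highest on the wild-type day 7 arrays (391 and 433 for Arntl).

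Per2, a core repressor of the loop, gave the second-lowest change of all genes in wild-type skin. Its scaled intensity in wild-type skin was 410.3, 550.0 and 593 at day 0, 267, 306 and 238 at day 1 and 54.0 and 62.1 at day 7. In transgenic skin it was 556 and 409 at day 0, 313, 322 and 347 at day 1 and 63.9, 63.7 and 77.0 at day 7. Within each genotype the 3 days did not overlap, and the levels went down from day 0 through day 1 to day 7. Against day 0, day 7 differed by -2.60 ± 0.16 in wild-type skin (6.05-fold lower, limma adjusted p = 1.33e-07) and -2.35 ± 0.16 in transgenic skin (5.09-fold lower, limma adjusted p = 3.08e-08). Per2 was above the 40th percentile of its array on 11 arrays, which are those of days 0 and 1, so its day 7 level lies in the dim range.

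Per3, a period protein with a lesser part in timekeeping, fell in both genotypes. Its wild-type arrays read 553, 684 and 605 at day 0, 366, 399.6 and 367 at day 1 and 202 and 223 at day 7, with means of 614 ± 65.7 (SD, n = 3), 377 ± 19.2 (n = 3) and 212 ± 15.1 (n = 2). Its transgenic arrays read 543 and 531 at day 0, 436, 346 and 388 at day 1 and 223, 174 and 219 at day 7, with means of 537 ± 7.95 (n = 2), 389.9 ± 44.9 (n = 3) and 205 ± 27.5 (n = 3). Day 0 lay above day 1 and day 1 above day 7 on every array of each genotype. The day 7 change was -1.40 ± 0.12 (limma adjusted p = 6.91e-06) in wild-type skin and -1.27 ± 0.12 (limma adjusted p = 1.16e-06) in transgenic skin.

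Per1, the period gene that also answers quickly to signals such as glucocorticoids, changed least of the E-box side. Wild-type arrays read 539.8, 501 and 951 at day 0, 614, 659 and 576 at day 1 and 408 and 364 at day 7. Transgenic arrays read 591 and 722 at day 0, 743, 651 and 725 at day 1 and 315, 292 and 385 at day 7. In both genotypes days 0 and 1 overlapped and day 7 lay below them, and the third wild-type day 0 array stood well above the other 2. Its day 7 change was -0.93 ± 0.20 in transgenic skin (limma adjusted p = 0.00154) and -0.68 ± 0.20 in wild-type skin (limma adjusted p = 0.0362). The wild-type call was lost without day 0 replicate 3 (-0.40, limma adjusted p = 0.0765), without day 7 replicate 1 (-0.76, limma adjusted p = 0.122) or without day 7 replicate 2 (-0.60, limma adjusted p = 0.184), and with unscaled arrays (limma adjusted p = 0.120). It was also lost without the filter on dim signals (limma adjusted p = 0.0551) and in a fit of only the groups compared (limma adjusted p = 0.106).

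Dbp, a PAR bZIP transcription factor that carries clock timing to metabolic genes, had the largest change among the 10 genes in transgenic skin. The transgenic arrays read 1776 and 1294 at day 0, 909, 1175 and 772 at day 1 and 132, 142 and 202 at day 7. The wild-type arrays read 2359, 1812 and 1842 at day 0, 1572, 1660.0 and 1416 at day 1 and 469 and 318 at day 7. In each genotype the 3 days did not overlap, and every transgenic day 7 array was below every wild-type day 7 array. By day 7 Dbp had changed by -3.04 ± 0.20 in transgenic skin (8.22-fold lower, limma adjusted p = 2.86e-08), the third-lowest of all genes. In wild-type skin it was -2.27 ± 0.20 (4.83-fold lower, limma adjusted p = 7.63e-06), the fourth-lowest. Ordered by mean, Dbp was highest in wild-type skin at day 0 (2004 ± 307), then wild-type day 1 (1549 ± 123) and transgenic day 0 (1535 ± 341), which overlapped, then transgenic day 1 (952 ± 205), wild-type day 7 (394 ± 106) and transgenic day 7 (159 ± 38.1).

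Tef and Hlf, the other members of the PAR bZIP family, fell with Dbp. Wild-type arrays of Tef read 4163, 3685 and 3495 at day 0, 2954, 2996 and 3149.5 at day 1 and 1600.0 and 1452 at day 7. Its transgenic arrays read 3236 and 3513 at day 0, 2825, 2913 and 2706 at day 1 and 1193, 1146 and 1281 at day 7. Tef fell without overlap of day 7 with the earlier days. Wild-type arrays of Hlf read 859, 748 and 743 at day 0, 503, 574 and 521 at day 1 and 357 and 268 at day 7. Its transgenic arrays read 671 and 719 at day 0, 490.4, 441 and 468 at day 1 and 188, 171 and 227 at day 7. For both genes the day 7 arrays of each genotype lay below all its day 0 and day 1 arrays, and the transgenic day 7 arrays lay below the wild-type ones. Tef changed by -1.29 ± 0.09 in wild-type skin (limma adjusted p = 4.99e-07) and -1.46 ± 0.09 in transgenic skin (limma adjusted p = 1.34e-08). Hlf changed by -1.25 ± 0.13 (limma adjusted p = 3.11e-05) and -1.68 ± 0.13 (limma adjusted p = 8.86e-08).

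Nr1d2, which encodes the heme-binding repressor REV-ERBβ, completed the E-box side. Its arrays read 2646, 2967 and 2889 at day 0, 2262, 2487 and 2163 at day 1 and 1224 and 1504 at day 7 in wild-type skin. They read 2901 and 2743 at day 0, 1972, 2441 and 2403 at day 1 and 1308, 879 and 1068 at day 7 in transgenic skin. Day 7 did not overlap the earlier days in either genotype. Nr1d2 changed by -1.04 ± 0.14 in wild-type skin (limma adjusted p = 0.000424) and -1.37 ± 0.14 in transgenic skin (limma adjusted p = 2.16e-06).

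Cell makeup also differed at day 7, unequally in the 2 genotypes. The summed intensity of 5 adipocyte markers was 21302 to 25039 in transgenic skin at day 0 and 9808 to 11587 at day 7. In wild-type skin it was 21571 to 25876 at day 0 and 15903 to 22015 at day 7, which overlapped. Skeletal muscle markers (6 of 6) summed to 54838 to 63029 and 32787 to 40322 in transgenic skin at days 0 and 7, and to 56143 to 65728 and 60563 to 67986 in wild-type skin. Macrophage markers (6 of 6) summed to 8753 to 9951 at day 0 and 17555 to 17574 at day 7 in wild-type skin, and to 8386 to 9357 and 7491 to 12122 in transgenic skin. At day 1 macrophage markers already summed to 17471 to 18113 in wild-type skin and to 13244 to 17591 in transgenic skin. Adipocyte and muscle marker sums at day 1 overlapped those of day 0 in both genotypes. The part of these cells in the clock gene changes, at day 1 or day 7, was not tested.

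The opposite side was not uniform from day 0 to day 7. In wild-type skin Arntl and Clock rose and Cry1 fell, so that all 10 clock genes were called, where 5.48% of all genes rose and 5.96% fell. In transgenic skin none of the 3 was called, where 18.6% of all genes rose and 20.1% fell, and none of the 3 had an unadjusted p under 0.05, beside 46.5% of all genes. The median change of the 3 genes was 0.54 in wild-type skin and -0.03 in transgenic skin, beside -0.03 and 0.01 over all genes. The plot of changes within each genotype shows Arntl and Clock parting from the E-box side in wild-type skin at day 7, while Cry1 went down with it.

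**Figure D2:**
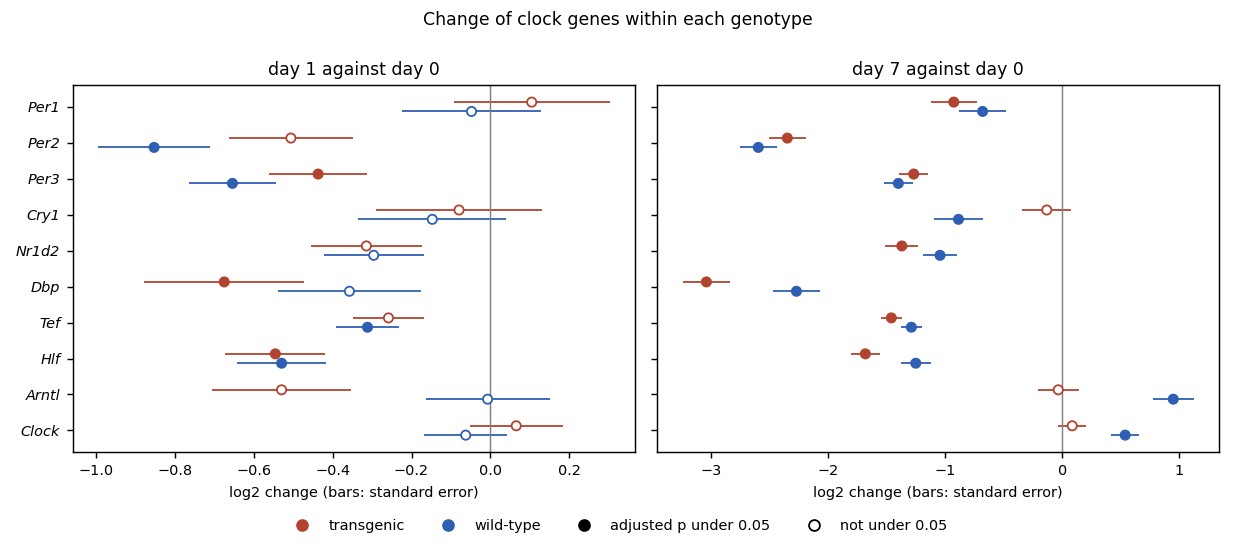
Log2 change of each clock gene within transgenic (red) and wild-type (blue) skin, at day 1 (left) and day 7 (right) against day 0, with standard errors as bars and filled points for a limma adjusted p under 0.05. At day 7 the 7 E-box side genes lie left of 0 in both genotypes, and Arntl lies at 0.95 in wild-type skin and at -0.03 in transgenic skin.

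Arntl encodes BMAL1, the partner of CLOCK and the loop's indispensable activator. Its wild-type arrays read 162, 194 and 246 at day 0, 186, 207 and 199 at day 1 and 391 and 433 at day 7. Its transgenic arrays read 284 and 299 at day 0, 244, 155 and 187 at day 1 and 248, 351 and 262 at day 7. Both wild-type day 7 arrays were above all the other 14 arrays, while transgenic days 0 and 7 overlapped. The day 7 change was 0.95 ± 0.18 in wild-type skin (1.93-fold higher, limma adjusted p = 0.00336) and -0.03 ± 0.18 in transgenic skin (limma adjusted p = 0.901, 95% interval -0.41 to 0.34). By mean, wild-type day 7 (412 ± 30) came first, then transgenic day 0 (291 ± 10.3) and transgenic day 7 (287 ± 56.1). Wild-type day 0 (201 ± 42.2), wild-type day 1 (197 ± 10.5) and transgenic day 1 (195 ± 45.1) came last and overlapped one another.

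Clock encodes the other member of the activator pair, whose message cycles weakly in most tissues. Its wild-type arrays read 273, 267 and 249 at day 0, 246, 255 and 249.8 at day 1 and 378 and 414 at day 7. Its transgenic arrays read 229.9 and 258 at day 0, 247, 236 and 289 at day 1 and 273, 222 and 291 at day 7. The 2 wild-type day 7 arrays were again above all other arrays, and the 3 transgenic days overlapped. The wild-type day 7 change was 0.54 ± 0.12 (1.45-fold higher, limma adjusted p = 0.00874), and the transgenic one was 0.08 ± 0.12 (limma adjusted p = 0.613, 95% interval -0.17 to 0.34). The wild-type call of Clock was lost without day 7 replicate 2 (0.48, limma adjusted p = 0.0869) and with unscaled arrays (0.50, limma adjusted p = 0.327).

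Cry1 encodes a strong repressor of the activator pair. It read 120.1, 174 and 117 at day 0, 107, 134 and 117 at day 1 and 46.2 and 72.5 at day 7 in wild-type skin. It read 115 and 138 at day 0, 97.7, 115 and 143 at day 1 and 82.4, 146 and 115 at day 7 in transgenic skin. Only the wild-type day 7 arrays stood apart, below all 14 others. The wild-type change was -0.89 ± 0.21 (1.85-fold lower, limma adjusted p = 0.0127) and the transgenic one -0.13 ± 0.21 (limma adjusted p = 0.661, 95% interval -0.58 to 0.31). Cry1 was above the 40th percentile of its array on 9 arrays. It did not pass the stricter filter tried (60th percentile on 3 arrays) and so was not tested under it. Its wild-type call was lost without day 0 replicate 2 (-0.73, limma adjusted p = 0.0559) and without day 7 replicate 1 (-0.68, limma adjusted p = 0.172).

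The first day gave smaller changes. In wild-type skin 4 clock genes fell from day 0 to day 1 and none rose, where 12.3% of all genes fell and 10.1% rose. Those were Per2 (-0.85 ± 0.14, limma adjusted p = 0.000991), Per3 (-0.65 ± 0.11, limma adjusted p = 0.00110), Tef (-0.31 ± 0.08, limma adjusted p = 0.0122) and Hlf (-0.53 ± 0.11, limma adjusted p = 0.00420). In transgenic skin 3 fell and none rose, where 4.15% of all genes fell and 6.60% rose. Those were Hlf (-0.55 ± 0.13, limma adjusted p = 0.0132), Per3 (-0.44 ± 0.12, limma adjusted p = 0.0339) and Dbp (-0.67 ± 0.20, limma adjusted p = 0.0445). The median change was -0.36 for the E-box side and -0.06 for the opposite side in wild-type skin, and -0.44 and -0.08 in transgenic skin.

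The day 1 calls rested on few arrays. In transgenic skin none of the 3 was called without day 0 replicate 2 (limma adjusted p = 0.125 for Hlf, 0.160 for Per3 and 0.0733 for Dbp). There, 1 was called without day 0 replicate 1 (limma adjusted p = 0.129 for Per3 and 0.290 for Dbp) or without day 1 replicate 3 (limma adjusted p = 0.0565 for Per3 and 0.116 for Dbp). Per3 was not called either without day 1 replicate 2 (limma adjusted p = 0.106), and Dbp was not without day 1 replicate 1 (limma adjusted p = 0.105). Dbp also lost its call without any 1 of 6 arrays of other groups (limma adjusted p = 0.0514 to 0.0540). Leaving these out did not move the change of Dbp itself (-0.67), only its adjusted p. In wild-type skin Tef was not called without day 0 replicate 1 (limma adjusted p = 0.0541). With unscaled arrays, 1 of the 4 wild-type and none of the 3 transgenic calls held. Without the filter, Per3 (limma adjusted p = 0.0506) and Dbp (0.0656) lost their transgenic calls, as they did in a fit of only the groups compared (0.0952 and 0.0824). Arntl had a transgenic day 1 change of -0.53 ± 0.18 (limma adjusted p = 0.0637) and a wild-type one of -0.01 ± 0.16 (limma adjusted p = 0.979).

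The E-box side changed more between days 1 and 7 than in the first day, with medians of -0.75 in wild-type and -1.14 in transgenic skin. In transgenic skin the 7 E-box side genes fell and Arntl rose from day 1 to day 7, where 22.7% of all genes fell and 21.5% rose. The falls ran from -0.83 ± 0.11 (Per3) to -2.36 ± 0.18 (Dbp), and Arntl changed by 0.49 ± 0.16 (limma adjusted p = 0.0183). The rise of Arntl lost its call without day 1 replicate 2 (0.36, limma adjusted p = 0.0943) or day 7 replicate 2 (0.36, limma adjusted p = 0.104), and with quantile normalization (0.38, limma adjusted p = 0.0612). It was lost too with unscaled arrays (limma adjusted p = 0.101) and in a fit of only the groups compared (limma adjusted p = 0.0512). In wild-type skin 6 of the 7 fell and Arntl and Clock rose, where only 1.47% of all genes fell and 1.68% rose. The largest of those falls was that of Dbp (-1.91 ± 0.20, limma adjusted p = 0.000119), and Arntl and Clock changed by 0.95 ± 0.18 (limma adjusted p = 0.00924) and 0.60 ± 0.12 (limma adjusted p = 0.0129). Per1 (-0.63 ± 0.20, limma adjusted p = 0.0906) and Cry1 (-0.74 ± 0.21, limma adjusted p = 0.0671) were not called.

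The wild-type comparison of days 7 and 1 leaned on its 2 day 7 arrays. Without day 7 replicate 1, 4 of the 8 calls held, and Per3 (limma adjusted p = 0.0958), Nr1d2 (0.197), Arntl (0.0867) and Clock (0.0958) did not. Without day 7 replicate 2, 5 held, and Hlf (limma adjusted p = 0.0789), Arntl (0.0696) and Clock (0.0926) did not. With unscaled arrays 3 held.

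Between genotypes, no clock gene was called at day 0 or day 1. At day 0, 1 of the 10 had an unadjusted p under 0.05, beside 4.56% of all genes, and 0.0110% of all genes were called. That gene was Arntl, whose 2 transgenic arrays (284 and 299) lay above all 3 wild-type ones (162, 194 and 246), a difference of 0.49 ± 0.18 (limma adjusted p = 0.994). At day 1, 1 of the 10 had an unadjusted p under 0.05, beside 20.1% of all genes, and 1.30% of all genes were called. That gene was Dbp, at -0.70 ± 0.18 (limma adjusted p = 0.0687), with every transgenic array below every wild-type one. Without transgenic day 1 replicate 2, 1 clock gene was called at day 1.

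At day 7 the 2 genotypes differed in 6 clock genes. Transgenic skin was lower in Dbp, Tef, Hlf, Arntl and Clock, where 21.0% of all genes were lower, and higher in Cry1, where 19.5% were higher. The output factors differed by -1.15 ± 0.20 for Dbp (2.22-fold lower, limma adjusted p = 0.000353), -0.59 ± 0.13 for Hlf (limma adjusted p = 0.00159) and -0.33 ± 0.09 for Tef (limma adjusted p = 0.00817). The opposite side differed by -0.55 ± 0.12 for Clock (limma adjusted p = 0.00169), -0.49 ± 0.18 for Arntl (limma adjusted p = 0.0353) and 0.67 ± 0.21 for Cry1 (limma adjusted p = 0.0180). The period genes were not called, with intervals of -0.63 to 0.21 for Per1, -0.18 to 0.49 for Per2 and -0.31 to 0.22 for Per3. The median was -0.33 on the E-box side and -0.49 on the opposite side. By count, 3 of the 7 E-box side genes were lower, and 2 of the 3 opposite side genes were lower and 1 was higher. Nr1d2 was not called either, with an interval of -0.63 to -0.03.

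Some of these calls depended on single arrays. Arntl lost its call without transgenic day 7 replicate 1 (limma adjusted p = 0.118) or 3 (0.0883), or without wild-type day 7 replicate 1 (0.0826) or 2 (0.185). Cry1 lost it without transgenic day 7 replicate 2 (limma adjusted p = 0.0797) or wild-type day 7 replicate 1 (0.200), and Tef without the latter (0.101), which left 3 calls. With unscaled arrays Dbp was the only one called, and fits of the 2 day 7 groups alone gave Cry1 a limma adjusted p of 0.0581. Without the filter Arntl had a limma adjusted p of 0.0539. At day 7 the transgenic arrays were also lower in adipocyte, muscle, macrophage, endothelial and Schwann cell markers. The 6 macrophage markers summed to 7491 to 12122 against 17555 to 17574, and 5 of the 6 were called lower. The 5 endothelial markers summed to 755 to 973 against 1559 to 1766, and the 2 Schwann markers read summed to 2441 to 3453 against 5220.4 to 5833. Markers of dividing cells (4 of 5 read) summed to 5283 to 5757 against 1557 to 1731. Their part in the genotype differences was not tested.

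Whether the day 7 change itself differed between genotypes was tested as an interaction, and it was called for 1 of the 10 genes. That gene was Arntl, at -0.98 ± 0.25 (limma adjusted p = 0.0100), where 11.7% of all genes had a lower and 12.1% a higher change in transgenic skin. The call held under every one of the 26 alternatives tried, with a highest limma adjusted p of 0.0446. Several of these could move only the adjusted p and not the change itself. They were the other filters, probe set averaging, the fit of only the groups compared, no variance trend and leaving out a day 1 array. It combines the day 0 and the day 7 difference of Arntl, which have opposite signs and like size (0.49 and -0.49).

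**Figure D3:**
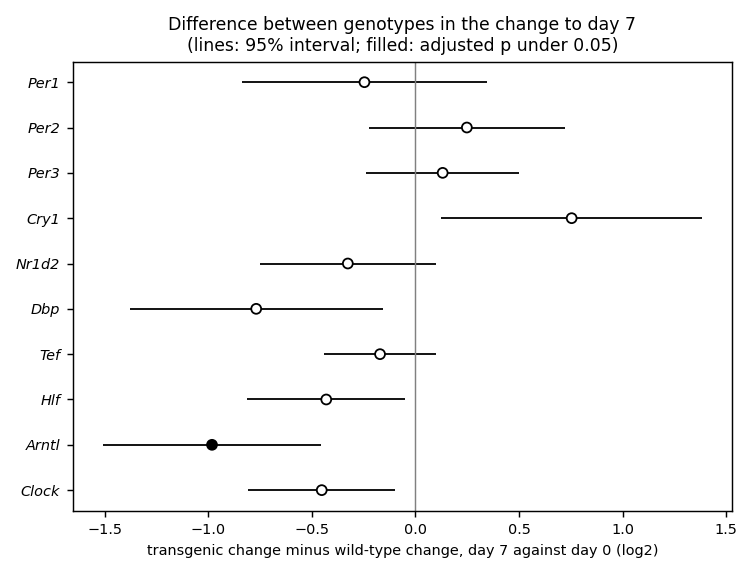
Difference between the genotypes in the log2 change from day 0 to day 7 (transgenic minus wild-type) for each clock gene, with 95% intervals as lines and a filled point for a limma adjusted p under 0.05. Arntl, at -0.98, is the filled point, and the intervals of Cry1, Dbp, Hlf and Clock also miss 0 before adjustment.

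With Arntl, 5 of the 10 had an unadjusted p under 0.05, beside 36.4% of all genes. The other 4 did not pass the adjusted threshold, Clock and Cry1 among them, so their different calls in the 2 genotypes at day 7 are not shown to differ. They were Dbp (-0.77 ± 0.29, limma adjusted p = 0.0640), Clock (-0.45 ± 0.17, limma adjusted p = 0.0616), Cry1 (0.75 ± 0.30, limma adjusted p = 0.0774) and Hlf (-0.43 ± 0.18, limma adjusted p = 0.0938). Without transgenic day 7 replicate 3, Dbp (limma adjusted p = 0.0228), Hlf (0.0368) and Clock (0.0350) were called as well. Without wild-type day 7 replicate 2, Dbp and Hlf were (limma adjusted p = 0.0346 for both). Dbp was called without transgenic day 0 replicate 2 (limma adjusted p = 0.0432) or wild-type day 0 replicate 1 (0.0431), Clock without transgenic day 1 replicate 3 (0.0485) and Cry1 without transgenic day 7 replicate 1 (0.0374). The intervals of the period genes were -0.84 to 0.35 for Per1, -0.23 to 0.72 for Per2 and -0.24 to 0.50 for Per3. The same difference for day 1 was called for none of the 10, where 0.287% of all genes were called, and 1 (Arntl, -0.52 ± 0.24, limma adjusted p = 0.305) had an unadjusted p under 0.05, beside 15.3% of all genes.

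The 2 sides were set against each other on each array. Each gene's log2 values were centred on their mean over the 16 arrays, and the mean of Arntl, Clock and Cry1 was taken from the mean of the 7 E-box side genes. This difference was 0.76 ± 0.12 (SD, n = 3) in wild-type skin at day 0, 0.39 ± 0.06 (n = 3) at day 1 and -0.95 ± 0.22 (n = 2) at day 7. In transgenic skin it was 0.52 ± 0.15 (n = 2), 0.32 ± 0.14 (n = 3) and -1.18 ± 0.24 (n = 3). Its 0 is set by the centring, so only differences between arrays can be read from it, not its sign. At day 7 the genotypes overlapped, with transgenic arrays between -1.46 and -1.03 and wild-type arrays between -1.11 and -0.79.

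The composition of that difference was not alike at day 7. In transgenic skin the opposite side was at -0.10 to 0.18, while the E-box side was at -1.28 to -0.99. In wild-type skin the opposite side was at 0.06 to 0.29, with Arntl and Clock up and Cry1 down inside it, and the E-box side was at -0.82 to -0.73. For the pair Dbp and Arntl alone, the centred difference was 1.50 ± 0.44 (SD, n = 3), 1.15 ± 0.12 (n = 3) and -1.72 ± 0.46 (n = 2) in wild-type skin at days 0, 1 and 7. It was 0.62 ± 0.36 (n = 2), 0.48 ± 0.50 (n = 3) and -2.38 ± 0.41 (n = 3) in transgenic skin. The plot of Dbp against Arntl shows the transgenic day 7 arrays at the lowest Dbp without the highest Arntl.

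**Figure D4:**
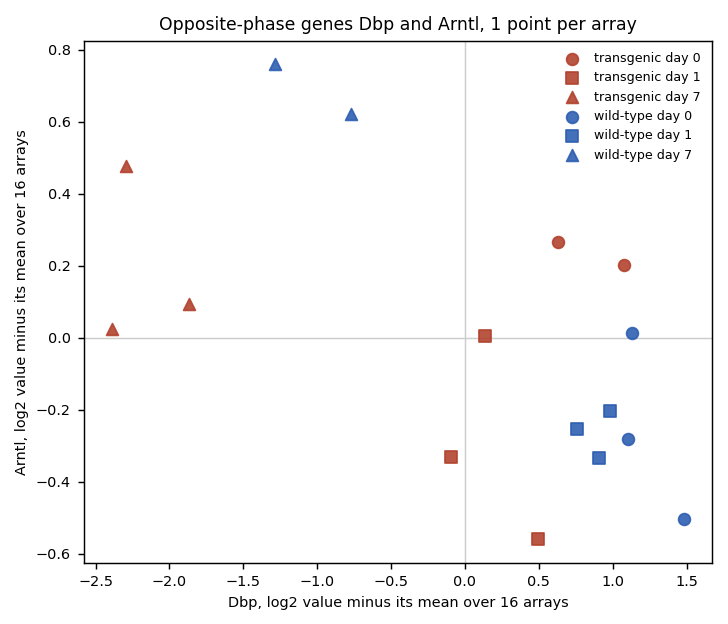
Dbp (horizontal) against Arntl (vertical) on each array, both as log2 values centred on their mean over 16 arrays, with colour for genotype and shape for day. The wild-type day 7 arrays lie at the upper left, and the transgenic day 7 arrays lie further left and lower, with Dbp minus Arntl from -2.77 to -1.96.

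Further probe sets that passed the filter gave a second reading for 7 of the 10 genes. Those of Per2, Dbp and Hlf also fell at day 7 in both genotypes, with changes of -1.09, -1.82 and -1.10 in wild-type skin and -1.34, -2.29 and -1.55 in transgenic skin. The other Per3 probe set fell in transgenic skin (-0.61) and was not called in wild-type skin (-0.50, limma adjusted p = 0.0846). The other Clock probe set changed by 0.48 in wild-type skin at day 7 (limma adjusted p = 0.0584), and its difference between genotypes was called (-0.82, limma adjusted p = 0.0138). The other Nr1d2 probe set fell in transgenic skin at day 7 (-1.16), was at -0.13 in wild-type skin, and rose in wild-type skin at day 1 (1.04, limma adjusted p = 0.0237), against the used one. The other Tef probe set, with group means of 37.3 to 209, gave a day 7 change of 0.69 in transgenic skin (limma adjusted p = 0.193) and of -0.90 in wild-type skin (limma adjusted p = 0.171). Averaging the kept probe sets of Tef ended its calls in transgenic skin at day 7 (-0.38, limma adjusted p = 0.141), in wild-type skin at day 1 (0.29, limma adjusted p = 0.253) and between genotypes at day 7 (0.48, limma adjusted p = 0.0674), and turned the sign in the last 2 of them. The same averaging ended the wild-type day 1 call of Per3 (-0.24, limma adjusted p = 0.0566). In wild-type skin at day 1 none of the falls of Per2, Per3, Tef and Hlf was called on the other probe set. The changes there were -0.14, 0.18, 0.90 and -0.27 (limma adjusted p = 0.620, 0.431, 0.0826 and 0.169). In transgenic skin at day 1 the other probe sets of Hlf (-0.65) and Dbp (-0.64) fell. That of Per3 (-0.37, limma adjusted p = 0.202) was not called. From day 1 to day 7 in transgenic skin the other probe sets of Per2 (-1.04), Dbp (-1.65) and Hlf (-0.91) fell. Those of Per3 (-0.23), Tef (-0.06) and Nr1d2 (-0.09) were not called there (limma adjusted p = 0.244, 0.905 and 0.827). In wild-type skin from day 1 to day 7 the other probe sets of Per2 (-0.96), Dbp (-1.66), Tef (-1.79) and Hlf (-0.83) fell. Those of Per3 (-0.69), Nr1d2 (-1.17) and Clock (0.35) were not called in that comparison (limma adjusted p = 0.0550, 0.0827 and 0.242). Between genotypes at day 7 the other probe sets of Dbp (-0.63) and Clock (-0.50) were also lower in transgenic skin. That of Hlf (-0.39, limma adjusted p = 0.05505) was not called. That of Tef was called in the other direction, higher in transgenic skin (1.28, limma adjusted p = 0.0192). Arntl, Per1 and Cry1 had a single probe set each.

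Among 22 other genes of the clock and its known outputs, 18 were on the arrays with a single symbol and 14 were tested. In wild-type skin at day 7 none of the 14 rose and 3 fell, where 5.48% of all genes rose and 5.96% fell, with a median of -0.30. These were Usp2 (-0.93 ± 0.16), a deubiquitinase with a clock-driven message, Wee1 (-0.74 ± 0.19), a cell cycle kinase under E-box control, and Noct (-0.48 ± 0.13), a rhythmic phosphatase. In transgenic skin 3 rose and 6 fell at day 7, where 18.6% of all genes rose and 20.1% fell, with a median of -0.19. Those that rose were Nfil3 (1.40 ± 0.20), the repressor that competes with DBP for the D-box, Timeless (1.03 ± 0.15), a replication fork factor, and Noct (0.34 ± 0.13). Those that fell were Rora (-1.47 ± 0.14), an activator at the RORE, Nr1d1 (-0.82 ± 0.15), Usp2 (-0.69 ± 0.16), Wee1 (-0.71 ± 0.19), Nampt (-0.44 ± 0.10), which makes NAD, and Cry2 (-1.22 ± 0.33), named here to complete the count after its values were seen.

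The genotypes differed in 5 of these 14 in the change to day 7, 3 higher and 2 lower in transgenic skin, where 12.1% of all genes were higher and 11.7% lower. Nr1d1, the close relative of Nr1d2, read 998 and 679 on the wild-type and 346, 278 and 329 on the transgenic day 7 arrays, with day 0 means of 656 ± 43.3 and 587 ± 73.7. The transgenic day 7 arrays were all lower, and the difference in the change was -1.14 ± 0.21 (limma adjusted p = 0.00135). In wild-type skin Nr1d1 was not called at day 7 (0.32 ± 0.15, limma adjusted p = 0.188) where Nr1d2 fell. The other differences were -1.06 ± 0.19 for Rora, 0.82 ± 0.28 for Nfil3, 0.89 ± 0.21 for Timeless and 0.82 ± 0.18 for Noct (limma adjusted p = 0.00124, 0.0426, 0.00762 and 0.00375). Npas2, which can stand in for Clock, did not pass the filter on dim signals.

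Per1 also belongs to the glucocorticoid response, so 10 other genes of that response were read beside it. Those that met the rule for naming were Tsc22d3, Dusp1, Klf9, Mt2, Fkbp5, Errfi1, Cebpd and Zbtb16. Of the 10, 3 rose and none fell in transgenic skin at day 1 of treatment, and none rose and 4 fell in wild-type skin. Per1 was called in neither. Of all genes, 6.60% rose and 4.15% fell in transgenic skin at day 1, and 10.1% rose and 12.3% fell in wild-type skin. At day 7, 6 fell and 1 rose in transgenic skin, where 20.1% of all genes fell and 18.6% rose. In wild-type skin 6 fell and none rose, where 5.96% of all genes fell and 5.48% rose. Tsc22d3, a direct target of the receptor, read 2708 ± 262, 3601 ± 884 and 869 ± 40.0 in transgenic skin at days 0, 1 and 7, and 2659 ± 376, 1665 ± 79.0 and 1059.5 ± 68.4 in wild-type skin. Tsc22d3 fell by day 7 in both, as Per1 did. Mt2 went the other way in transgenic skin, with means of 2550 at day 0 and 7326 at day 7, beside 2602 and 2640 in wild-type skin. In the change to day 7, Mt2 was called higher and Dusp1 and Klf9 lower in transgenic skin, where 12.1% and 11.7% of all genes were. Between genotypes at day 1, 4 of the 10 were higher and none lower in transgenic skin, with a median of 0.62, where 1.30% of all genes were called.

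The genes whose 6 group means were most like those of Dbp were Cyp2e1, Cidec, Chst1, Sncg and Plac8, at root mean square differences of 0.32 to 0.48 on the centred log2 scale. The root mean square of the centred means of Dbp itself was 1.22. Cyp2e1, a cytochrome P450, had means of 4652 in wild-type and 4928 in transgenic skin at day 0, and of 1358 and 357 at day 7. Cidec, a lipid droplet protein of adipocytes, is 1 of the 5 adipocyte markers. Most like Arntl were Numbl, Stbd1, Cd209c, Ehf and Cxcl10, at 0.14 to 0.17 beside 0.36 for Arntl itself. Numbl, a relative of the Notch regulator Numb, had a wild-type day 7 mean of 442 and a transgenic one of 342.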

How the data were processed

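Per the labels' protocols, labelled cRNA from whole skin was read on Affymetrix mouse oligonucleotide arrays. The deposited values are linear intensities, 1 per probe set and array. How the authors summarised probes to probe sets: not given in the sources used here.

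Each of 16 arrays was scaled to a common trimmed mean over all probe sets (2% cut at each end, controls included). Control probe sets were left out from the filter on. The filter kept 15058 of 22690 probe sets, those that exceeded an array's 40th percentile on 2 or more arrays. For each gene the brightest kept probe set with 1 symbol was used (9058 genes; 3242 had several). Values were log2(scaled intensity + 32). limma 3.58.1 (R 4.3.3) fitted 6 group means with a variance trend and 10 residual degrees of freedom over 11 comparisons, two-sided, with Benjamini-Hochberg adjustment over all genes and a threshold of 0.05. The script was tested on simulated data.

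Every clock gene is named. From the lists of other clock and glucocorticoid-responsive genes, up to 8 each are named by smallest p among those called in the difference between genotypes or in 2 or more comparisons. Likeness to Dbp and Arntl was measured over the 6 centred group means. Members and lists were chosen with earlier results of these data known. Alternatives varied the scaling, added value, filter, probe set choice, samples fitted, variance trend, replicate block and each array. Fitting every kept probe set on its own was added after seeing the data. Intensities give no counts, so the number of arrays limits the precision.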

Additional observations from a re-analysis of the deposited data

Results flagged for a closer look

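The change of Arntl from day 0 to day 7 differed between the genotypes. The interaction was -0.98 on the log2 scale (limma adjusted p = 0.0100), the transgenic change being -0.03 and the wild-type change 0.95. The 2 transgenic day 0 arrays were above all 3 wild-type day 0 arrays, and the 2 wild-type day 7 arrays were above all 3 transgenic day 7 arrays. Hour of sampling and group cannot be told apart here.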

How the results depend on the processing

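Of 47 called changes of clock genes, 26 kept their direction and call under all 26 alternatives. These alternatives include the mean of all kept probe sets but not another probe set fitted alone. Some kept calls failed on the other probe set. Among them were Nr1d2 in wild-type skin at day 7 (-0.13, limma adjusted p = 0.839) and Per2 there at day 1 (-0.14, limma adjusted p = 0.620). Members called ran over the settings as follows. For transgenic day 1 against day 0, 3 became 0 without scaling, 1 without the filter, 1 with only the groups compared and 1 with the replicate block. For wild-type day 1 against day 0, 4 became 1 without scaling and 2 with the mean of all kept probe sets. For wild-type day 7 against day 1, 8 became 3 without scaling, and for transgenic against wild-type at day 7, 6 became 1. For the difference in the change to day 7, 1 became 4 with quantile normalization and 2 with 8 added, with the mean of all probe sets or with the replicate block. Leaving out 1 array gave 0 to 4 calls for transgenic day 1 against day 0, 4 to 9 for wild-type day 7 against day 1, 0 to 1 for the genotypes at day 1, 3 to 6 at day 7, and 1 to 4 for the difference to day 7. The cause of these shifts was not tested.

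Many uncalled values, and medians near 0, changed sign under some alternative. Among changes of single clock genes called in the report or under the alternative, signs turned as follows. The other Tef probe set gave 0.69 for transgenic day 7 against day 0, 0.90 for wild-type day 1 against day 0 and 1.28 for the genotypes at day 7, and averaging Tef probe sets gave 0.29 and 0.48 for the last 2. The other Per3 probe set gave 0.18 and the other Nr1d2 probe set 1.04 for wild-type day 1 against day 0. Among the medians, without scaling that of the E-box side between genotypes at day 0 was 0.00078.

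Replicate numbers were checked for pairing. Over 36 pairs of arrays with the same number in different groups, deviations correlated at a median of 0.03 (-0.25 to 0.19), and 7 pairs were over 0.1. Over 70 pairs with other numbers the median was -0.02 (-0.21 to 0.25), and 12 were over 0.1. In groups of 2 arrays the deviations mirror each other, so this check cannot settle whether numbers share an animal or batch. With the block, Per3 (limma adjusted p = 0.0565) and Dbp (0.0717) lost their calls for transgenic day 1 against day 0, and Per1 (-0.59, limma adjusted p = 0.0591) for wild-type day 7 against day 0. Beyond the counts given, the block moved no count of members by over 1.5 times. Dim genes set the limit on depth: at day 7 Per2 lies under the 40th percentile of its arrays, and so does Cry1 on both wild-type and 2 of the 3 transgenic arrays.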
